A study of Sus scrofa with 31 samples.

Results

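The genes described here are the nuclear-encoded subunits of the mitochondrial respiratory chain and ATP synthase in pig heart muscle, together with assembly factors and isoforms that share their names. They were chosen by gene symbol alone: symbols starting with NDUFA, NDUFB, NDUFC, NDUFS, NDUFV, UQCR or ATP5, COX followed by a digit from 4 to 8, and SDHA, SDHB, SDHC, SDHD and CYC1. No measured value entered that choice. It found 86 genes, 82 of the 21313 in the first expression table and 45 of the 25149 in the second, with 41 in both. By complex these were 34 subunits of complex I, 4 of complex II, 8 of complex III, 18 of complex IV and 14 of ATP synthase, plus 8 complex I assembly factors whose symbols start with NDUFAF. NDUFA4 and its relative NDUFA4L2 were placed with complex IV, where the NDUFA4 protein is now known to sit.

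The respiratory chain carries electrons through complexes I to IV of the inner mitochondrial membrane to oxygen, pumping protons as it does so, and ATP synthase uses the proton gradient to make ATP. Complexes I, III and IV and ATP synthase are built from both nuclear and mitochondrial genes, while all subunits of complex II are nuclear. The beating heart depends on this supply of ATP, and cardiac mitochondria carry muscle-type isoforms of several complex IV subunits. Loss of oxygen and its return act directly on these complexes, which is why their transcripts are of interest in stored donor hearts.

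The study stored pig hearts outside the body in the cold, either by SCS or by HOPE. The labels do not spell these abbreviations out; the usual readings are static cold storage, in which the organ lies in cold solution, and hypothermic oxygenated perfusion, in which cold oxygenated solution is pumped through it. In the first experiment, 3 hearts under HOPE (pigs 2, 4 and 6) and 3 under SCS (pigs 1, 3 and 5) were biopsied at 0, 12, 24 and 48 h of storage, giving 24 libraries. In the second, hearts were biopsied after storage and 2 h of normothermic machine perfusion (NMP), in which the heart is perfused at body temperature: 1 library after 24 h of SCS and 2 each after 3, 24 and 48 h of HOPE. The labels give no strain, age or sex, and no drug or genetic change. They call the material cardiomyocytes, but it was myocardium taken by biopsy. Unstored hearts followed by NMP are not analysed here.

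Values of the first experiment are normalised read counts, read counts divided by a library size factor; those of the second are TPM, transcript abundances scaled for transcript length and to a fixed total. The first experiment held 19722065 to 35099406 reads per library, and the depth of the second is unknown. Of 14 cardiomyocyte markers (sarcomere, calcium-handling and energy genes such as TNNT2 and MYH7) 12 were found, none at 0 in any group, with summed normalised counts at 48 h of 1717852 to 1843797 in HOPE hearts and 1125512 to 1915071 in SCS hearts. Pericyte and smooth muscle markers summed to 12553 to 21826 in HOPE hearts and 22794 to 38324 in SCS hearts at 48 h, so other cell types were in the biopsies. In such bulk tissue, fewer cells of a type and less RNA per cell cannot be told apart. The 48 h SCS library of pig 5 stood apart from the rest, with 82.4% of its normalised counts on mitochondrially encoded genes. HOPE pig 6 lay apart from HOPE pigs 2 and 4 at every time in the ratio of NDUFS1 to NDUFB1 counts, a large and a small subunit of complex I. It was 1.10, 2.23, 2.62 and 2.10 in pig 6 at 0, 12, 24 and 48 h. Over the same times it was 5.44, 6.84, 5.96 and 6.93 in HOPE pig 2 and 5.16, 5.77, 6.64 and 7.51 in HOPE pig 4. SCS pigs 1, 3 and 5 had 2.46, 1.14 and 1.04 at 0 h.

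Per transcript length, complex IV and ATP synthase subunits had the highest levels, and complex I assembly factors the lowest. Over the 6 HOPE libraries after NMP, the median of the members' TPM values, leaving out 3 members listed at 0 throughout, was 704 for complex IV, 686 for ATP synthase, 426 for complex III, 289 for complex I, 244 for complex II and 7.25 for the assembly factors. Among genes the table names, ATP5F1A, the alpha subunit of the catalytic F1 head, was the highest at a median of 1375 TPM (range 748 to 1831). COX4I1, the common form of complex IV subunit 4, followed at 1314 TPM (range 1015 to 1404) and COX5B, a zinc-binding subunit of complex IV, at 1272 TPM (range 973 to 1549). These 3 ranges overlap, so their order is within the spread of the libraries. Another 13 members of the first table have rows in the second that carry the same gene ID but no symbol; of these NDUFA4 stood at 2647 TPM and ATP5MC1, a gene for the proton-carrying c ring, at 1489.9 TPM. SDHA, NDUFB10 and COX8C are listed at 0 in all 7 libraries of the second table, and nothing is drawn from those zeros.

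Storage time alone moved no member past the threshold. Of the 81 members tested (the 82nd, COX7B2, had a mean normalised count of 0.426 and was left out), 0 passed an adjusted p of 0.05 with limma at 12, 24 or 48 h against 0 h, under HOPE or under SCS. The share of all 14141 tested genes called was also 0% in each of these 6 comparisons. At an unadjusted p under 0.05, there were 0 members at any time under HOPE, where 0.530%, 1.52% and 1.39% of all genes passed at 12, 24 and 48 h. Under SCS there were 1, 0 and 1, where 1.14%, 3.41% and 8.08% of all genes passed. edgeR and DESeq2 on the recovered reads also called 0 members in each; of all genes, edgeR called 0% throughout and DESeq2 0.156% for 48 h of SCS, 0.0283% for 24 h and 0.0141% for 48 h of HOPE, and 0% for the others. With the pig as a block, 48 h against 0 h called 0 members under HOPE, where 0.00707% of all genes passed, and 0 under SCS, where 2.18% passed. At an unadjusted p under 0.05 the blocked fit gave 2, 4 and 0 members under HOPE at 12, 24 and 48 h. Of all 14141 genes 559, 1197 and 1068 did so. Under SCS it gave 3, 5 and 13 members, where 657, 1592 and 2900 genes did so.

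At 48 h the members' median change within a pig was not the same way in each pig of a group. The median change of the 81 members between 48 h and 0 h, on the log2 scale, was -0.10, -0.24 and 0.12 in the HOPE pigs 2, 4 and 6, and 0.62, 0.019 and -0.44 in the SCS pigs 1, 3 and 5. In SCS pig 1 all 81 members were higher at 48 h than at 0 h, in pig 3 47 were higher and 34 lower, and in pig 5 67 were lower. Complex II gave the widest spread among SCS pigs, with medians of -0.047, -0.0087 and 0.52 in HOPE pigs and 0.50, -0.28 and -0.88 in SCS pigs. Complex IV medians were -0.099, -0.27 and -0.064 in HOPE pigs and 0.63, 0.034 and 0.0084 in SCS pigs. Under SCS 12 members were higher in all 3 pigs at 48 h and 0 were lower in all 3, where 13.9% and 16.2% of all genes did so. Under HOPE these counts were 6 and 22, against 18.5% and 13.8%. At 12 h the median of the 81 members was below 0 in each HOPE pig, at -0.14, -0.086 and -0.15. In SCS pigs 1, 3 and 5 it was 0.011, 0.46 and -0.034. Under HOPE 3 members were then higher in all 3 pigs and 43 lower, against 15% and 14.6% of all genes. Under SCS these counts at 12 h were 19 and 0, against 18.4% and 19%.

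**Figure D1:**
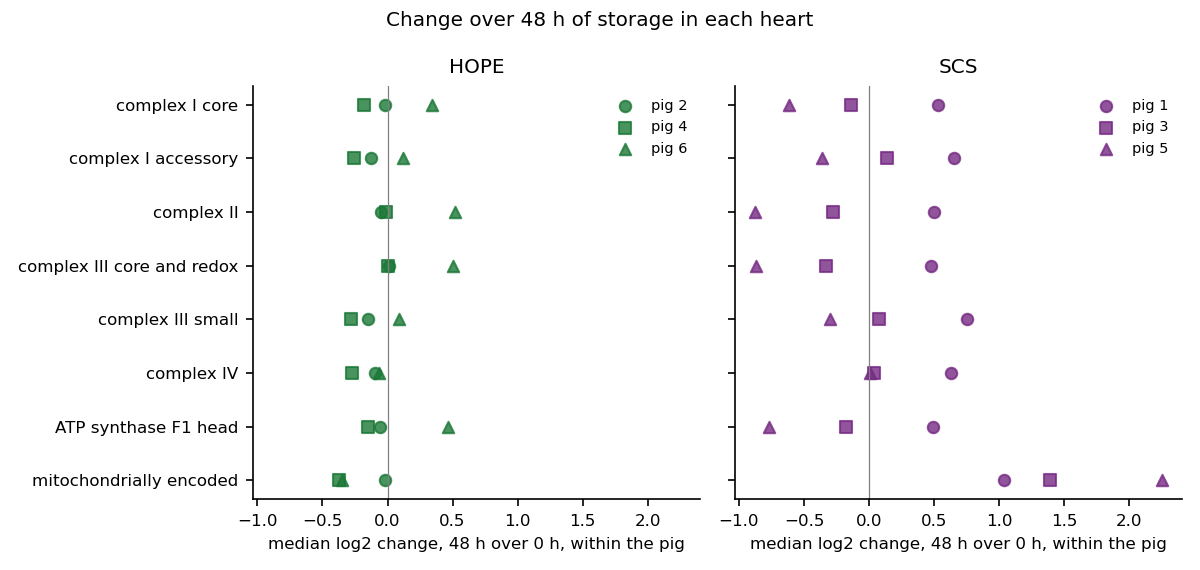
Median log2 change of the normalised count between 48 h and 0 h within each pig (horizontal axis), by complex or role (vertical axis), with HOPE pigs in the left panel, SCS pigs in the right and 1 point per pig. The 3 SCS pigs spread from -0.88 to 0.50 for complex II, and the 3 HOPE pigs from -0.047 to 0.52.

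Across the complexes the lowest and highest differences for 48 h of SCS were -0.45 for ATP5F1A and 0.58 for ATP5ME, a small membrane subunit, in ATP synthase, and 0.43 was the highest in complex I, for the accessory subunit NDUFA7. The lowest and highest were -0.41 for NDUFAF1 and 0.49 for NDUFAF2 among assembly factors, -0.36 for the flavoprotein SDHA and -0.082 for the membrane anchor SDHD in complex II, and -0.53 for the Rieske protein UQCRFS1 and 0.24 for the small subunit UQCRQ in complex III. In complex IV they were -0.14 for NDUFA4 and 0.70 for NDUFA4L2. None of these passed (adjusted p from 0.669 to 0.967).

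As a share of the library, the members were low in SCS pigs 3 and 5 at 48 h, where mitochondrially encoded transcripts were high. At 48 h the summed members held 2.08, 2.40 and 3.07% of all normalised counts in HOPE hearts, against 2.37, 1.498 and 0.619% in SCS hearts. At 0 h the shares were 2.28, 2.55 and 2.59% in HOPE hearts and 2.44, 2.42 and 2.40% in SCS hearts. The groups overlapped at both times, with pig 1 inside the HOPE range at 48 h and pigs 3 and 5 below it. The 13 mitochondrially encoded subunits held 31.8, 29.0 and 31.5% at 48 h in HOPE hearts and 48.0, 60.0 and 82.4% in SCS hearts, with no overlap. The ratio of nuclear to mitochondrially encoded counts at 48 h was 0.0654, 0.0829 and 0.0975 in HOPE hearts and 0.0494, 0.0250 and 0.00751 in SCS hearts. All SCS values at 48 h lay below all HOPE values, and pig 5 lay lowest.

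**Figure D2:**
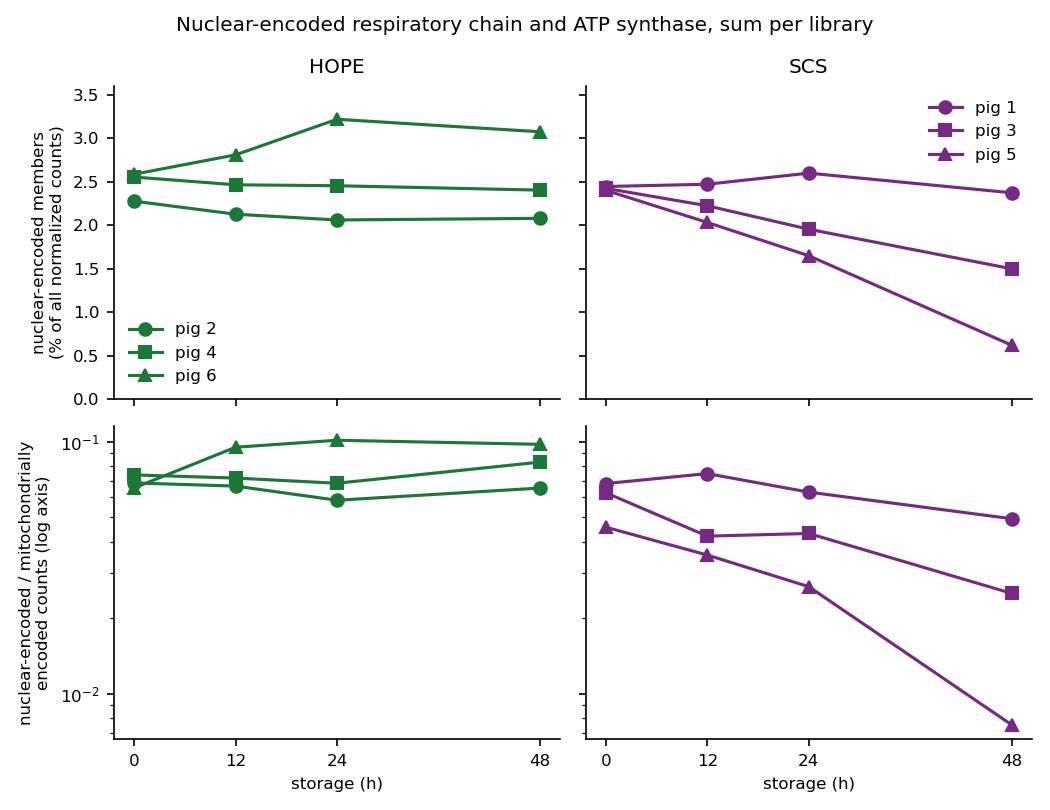
Summed normalised counts of the members as a percentage of all normalised counts (top) and divided by those of the mitochondrially encoded subunits (bottom, log axis), against hours of storage, 1 line per pig, HOPE left and SCS right. At 48 h the ratio spans 0.0654 to 0.0975 in HOPE pigs and 0.00751 to 0.0494 in SCS pigs.

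Set against counts of all other nuclear genes, the picture differed between complexes. Without mitochondrially encoded genes in the total, the members held 3.05, 3.38 and 4.49% at 48 h in HOPE hearts and 4.56, 3.74 and 3.51% in SCS hearts, which overlapped. On that total complex II held 0.237, 0.261 and 0.245% in HOPE hearts and 0.233, 0.127 and 0.0972% in SCS hearts, all SCS values lying below all HOPE values. Complex IV held 0.673, 0.734 and 1.34% in HOPE hearts and 1.33, 1.35 and 1.39% in SCS hearts, and HOPE pig 6 alone reached the SCS range.

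HOPE and SCS hearts were then compared at each time. The groups are different pigs, so the way of storage and the animal cannot be told apart in these comparisons. At 48 h 3 of 81 members passed with limma, where 6.25% of all genes did. Among them NDUFAF1 rose in HOPE hearts (3.84% of all genes did) and NDUFA4L2 fell (2.41% did). The members' share is 3.70%, below that of all genes. At 0, 12 and 24 h 0 members passed, where 0%, 0.0141% and 2.04% of all genes did. At an unadjusted p under 0.05 there were 0, 27, 25 and 31 members at 0, 12, 24 and 48 h. These are 0%, 33.3%, 30.9% and 38.3% of the members, where 7.21%, 16.3%, 26.8% and 27.8% of all genes passed. edgeR called 0 members at 0, 12 and 24 h, where 0%, 0.0141% and 1.55% of all genes passed, and 1 at 48 h (NDUFA4L2), where 5.95% did. DESeq2 called 0 at 0 and 12 h, where 0.0778% and 0.608% of all genes passed. At 24 h it called 4 (all higher, among them NDUFAF1, NDUFS1 and SDHC), where 10.8% of all genes passed, 6.06% higher, and at 48 h 9, where 13.7% passed.

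NDUFAF1 (ENSSSCG00000004748, chr1:129968480-129993534 on Sscrofa11.1), an early complex I assembly factor, had normalised counts of 1697, 1648 and 919.8 in HOPE hearts, against 879, 497 and 374 in SCS hearts at 48 h. HOPE pig 6 and SCS pig 1 nearly met, and the other libraries lay well apart. The difference was 1.32 ± 0.39 (log2, SE; adjusted p = 0.0496). At 0 h NDUFAF1 had 1530, 1385 and 605 in HOPE hearts, against 863, 615 and 718 in SCS hearts. NDUFA4L2 (ENSSSCG00000027621, chr5:22540482-22548418), a hypoxia-induced relative of NDUFA4 that is known to be enriched in pericytes, had 353, 260.5 and 561 in HOPE hearts, against 1031, 658 and 2143 in SCS hearts. Every HOPE heart lay below every SCS heart, and the difference was -1.60 ± 0.45 (adjusted p = 0.0430). At 0 h NDUFA4L2 had 297, 319 and 812 in HOPE hearts, against 566, 756 and 795 in SCS hearts. All 8 pericyte and smooth muscle markers were lower in HOPE hearts too, 1 of them past the threshold, where 2.41% of all genes fell. It was TAGLN, an actin-binding protein of smooth muscle, at -1.29 ± 0.35. The markers' median log2 difference was -0.62 at 48 h, against -0.50 at 0 h. Their part in the NDUFA4L2 difference was not tested.

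Markers of T and NK cells, lymphocytes that circulate and enter tissue, also lay lower in HOPE hearts by median. The 10 markers, none at 0 in any group, summed to 575 to 1372 normalised counts in HOPE hearts and 1013 to 1579 in SCS hearts at 0 h, and to 334 to 457 in HOPE hearts and 949 to 1517 in SCS hearts at 12 h. At 24 h the sums were 390.0 to 464 in HOPE hearts and 949.8 to 2159.7 in SCS hearts, and at 48 h 281 to 503 in HOPE hearts and 814 to 1330.1 in SCS hearts. The groups overlapped at 0 h and not later. With limma 0, 0, 3 and 5 of the 10 fell at 0, 12, 24 and 48 h and 0 rose, where 0%, 0.0141%, 0.771% and 2.41% of all genes fell. The markers' median log2 differences were -0.63, -1.32, -1.35 and -1.17. All 10 were negative at the first 3 times and 9 at 48 h. Their part in the members' differences was not tested.

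The calls at 48 h rested on few animals. Leaving out pig 2, 3, 4 or 5 left 0 members called at 48 h, where 0.0707%, 0.403%, 0.0778% and 0.0354% of all genes still passed. Without pig 1 there were 21 (16 of them higher), where 23.2% of all genes passed, and without pig 6 there were 30 (5 higher and 25 lower), where 22.3% did. The adjusted p of NDUFA4L2 without pigs 2, 3, 4 and 5 was 0.208, 0.0779, 0.221 and 0.273, and that of NDUFAF1 0.244, 0.160, 0.235 and 0.273. Without the 48 h SCS library of pig 5 alone 0 members and 0.0990% of all genes were called, and without the 0 h HOPE library of pig 6 alone 7 members and 10.4% of all genes. NDUFA4L2 and NDUFAF1 kept their sign in each of these fits. At the earlier times, where 0 had passed, leaving out pig 6 gave 20 members at 12 h and 23 at 24 h, where 10.1% and 17.0% of all genes passed. Leaving out pig 1 gave 11 at 24 h, where 19.2% of all genes passed. Under total-count scaling NDUFA4L2 stood at -0.48 and did not pass (adjusted p = 0.326), and edgeR gave adjusted p = 0.0529 for NDUFAF1.

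The pig was then entered as a random block, since the 4 libraries of a pig resembled each other. At 48 h 11.5% of all genes passed (6.88% higher and 4.63% lower), and 18 members, or 22.2% (6.17% higher and 16.0% lower). Of these 5 were higher in HOPE hearts, among them NDUFAF1, NDUFS1, SDHC and UQCRC2. The 13 lower ones were ATP5ME, ATP5MK, COX4I1, COX4I2, COX7A1, COX7A2, COX7B, COX7C, NDUFA4L2, NDUFB1, NDUFB2, NDUFB9 and NDUFS5, small subunits for the most part. At 24 h 7 passed, 8.64% of the members, where 9.87% of all genes did (5.78% higher and 4.09% lower). NDUFAF1, NDUFAF7, NDUFS1 and SDHC were higher, and ATP5ME, COX4I2 and NDUFB9 lower. At 0 and 12 h 0 passed, where 0% and 0.0424% of all genes did. Without pig 3 the blocked fit at 48 h called 1 member (NDUFA4L2) and 1.97% of all genes. Without pig 2, 4 or 5 it called 0 members, and 0.0849%, 0.113% and 0.0919% of all genes. Without pig 1 or pig 6 it called 34 and 33 members, and 26.8% and 23.6% of all genes.

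Several large catalytic and core subunits lay higher in HOPE hearts at 48 h without passing the main test. NDUFS1 (chr15:109413726-109451813), the largest subunit of complex I and a carrier of iron-sulfur clusters, had normalised counts of 10109.6, 11713 and 7619 in HOPE hearts, against 8286, 3125 and 2795 in SCS hearts. SCS pig 1 fell among the HOPE hearts and pigs 3 and 5 lay below them (1.21 ± 0.38; adjusted p = 0.0549, and 0.0311 with the block). SDHC (chr4:89135410-89169164), a membrane anchor of complex II that binds haem, had 5341, 5745 and 3859 in HOPE hearts, against 3319, 1941 and 1321 in SCS hearts. The groups did not overlap (1.27 ± 0.40; adjusted p = 0.0582, and 0.0237 with the block). HOPE pigs 2 and 4 already lay above all SCS pigs at 0 h, and HOPE pig 6 below them. At that time NDUFS1 had 9547, 9607 and 4275 in HOPE hearts, against 5827, 4793 and 5664 in SCS hearts. SDHC had 5330, 5481 and 1926 in HOPE hearts, against 2940, 2024 and 2557 in SCS hearts. SDHA, the flavoprotein that oxidises succinate, had 17803, 21308 and 18004 in HOPE hearts, against 18566, 7407 and 6151 in SCS hearts, and pig 1 again lay among the HOPE hearts (1.00 ± 0.34; adjusted p = 0.0698). UQCRC2, a core subunit of complex III, differed by 1.04 ± 0.35 (adjusted p = 0.0678, and 0.0351 with the block), and ATP5F1A by 0.91 ± 0.33 (adjusted p = 0.0857). Other core members did not pass with or without the block: 0.80 for UQCRFS1, 0.30 for the iron-sulfur subunit SDHB, 0.24 for the core subunit UQCRC1, 0.22 for cytochrome c1 (CYC1) and 0.14 for the NADH-binding subunit NDUFV1. The core complex I subunits NDUFS8, NDUFV2 and NDUFS3 lay lower in HOPE hearts, also without passing. NDUFS8, which carries iron-sulfur clusters, had 5289.9, 6851 and 10919 in HOPE hearts, against 12782, 12716 and 12822 in SCS hearts (-0.80 ± 0.33; adjusted p = 0.121, and 0.0692 with the block), with no overlap, while NDUFV2 stood at -0.19 and NDUFS3 at -0.023.

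Of the 16 tested complex IV members 15 lay lower in HOPE hearts at 48 h, as did 19 of the 26 accessory subunits of complex I. NDUFB1 (chr7:113652772-113659937), a small accessory subunit of complex I, had 1459, 1559 and 3631 in HOPE hearts, against 3857, 5198 and 6338 in SCS hearts at 48 h. Every HOPE heart lay below every SCS heart (-1.31 ± 0.43; adjusted p = 0.0622, and 0.0150 with the block). COX7A1 (chr6:45519225-45520721), the heart and muscle isoform of complex IV subunit 7a, had 6925, 7583 and 15941 in HOPE hearts, against 16107, 19568 and 24338 in SCS hearts. The groups did not overlap, though HOPE pig 6 lay just under SCS pig 1 (-1.07 ± 0.41; adjusted p = 0.104, and 0.0312 with the block). At 0 h NDUFB1 had 1756, 1861 and 3872 in HOPE hearts, against 2372, 4191 and 5425 in SCS hearts. COX7A1 then had 7335, 9622 and 16868.5 in HOPE hearts, against 10499, 12214 and 21728 in SCS hearts. COX4I2, the hypoxia-linked isoform of subunit 4, had 233, 239 and 577 in HOPE hearts, against 639, 599.6 and 1216 in SCS hearts (-1.28 ± 0.47; adjusted p = 0.0912, and 0.0300 with the block). ATP5ME differed by -1.27 ± 0.43 (adjusted p = 0.0720, and 0.0199 with the block). Neither COX5A, at 0.38 the highest of complex IV, nor COX5B at -0.81, nor ATP5IF1, the inhibitor of ATP synthase, at -0.56, passed in either fit.

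**Figure D3:**
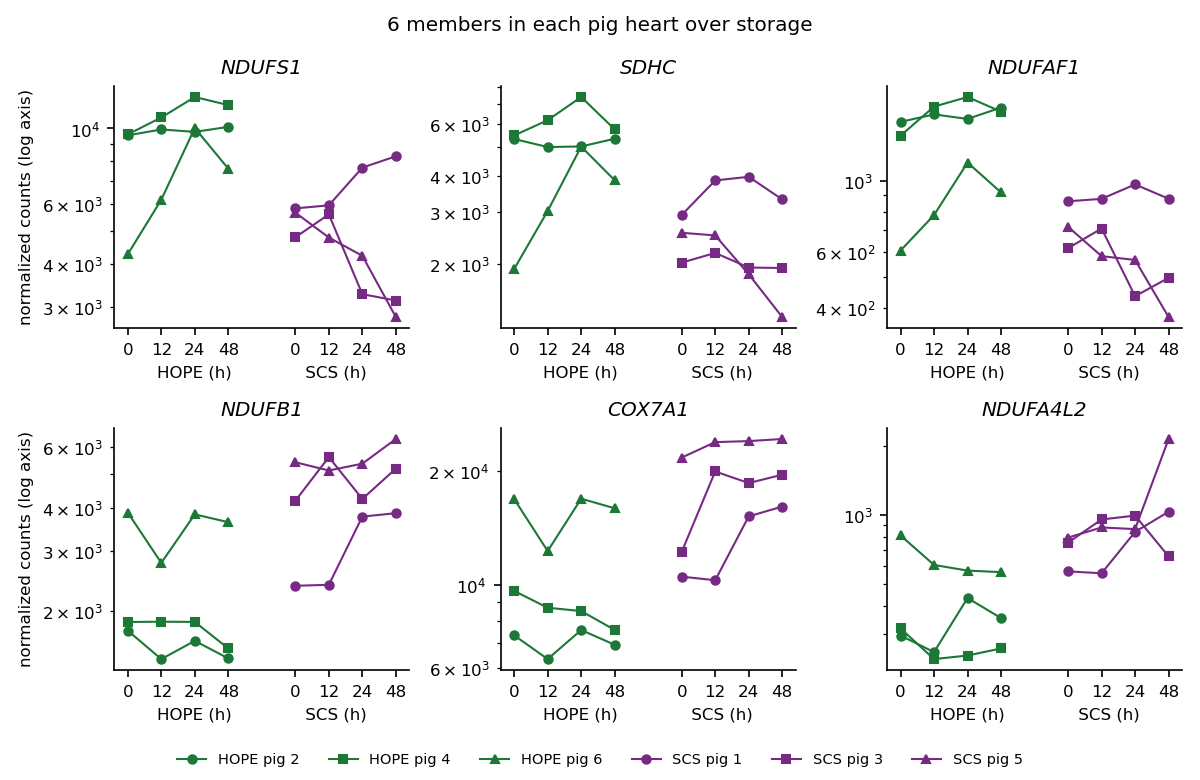
Normalised counts (log axis) of NDUFS1, SDHC, NDUFAF1, NDUFB1, COX7A1 and NDUFA4L2 against hours of storage, 1 line per pig, with HOPE and SCS in different colours. At 48 h the 3 HOPE pigs lie above the 3 SCS pigs for SDHC and NDUFAF1, and below them for NDUFB1, COX7A1 and NDUFA4L2.

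By role, the medians of complexes II and IV lay on opposite sides of 0 at all 4 times, 0 h included. The median log2 difference of HOPE over SCS for the 4 complex II members was 0.31, 0.35, 0.75 and 0.68 at 0, 12, 24 and 48 h. For the 4 core and redox subunits of complex III it was 0.14, 0.12, 0.52 and 0.52. These medians were positive at each time, though 1 of 4 complex II members was negative at 12 h, and in complex III 1 of 4 was negative at 0 h and 2 of 4 at 12 h. For the 16 tested complex IV members the medians were -0.33, -0.77, -0.64 and -0.87, with 15 of 16 negative at each time. For the 4 small subunits of complex III they were -0.19, -0.58, -0.30 and -0.45, all 4 negative each time. Within complex I, the 26 accessory subunits had medians of -0.17, -0.47, -0.16 and -0.30, and the 6 core subunits -0.0016, -0.20, 0.18 and 0.058. Over all tested genes the median stayed between -0.016 and 0.018. The 4 times share their animals, so they are not independent of each other.

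**Figure D4:**
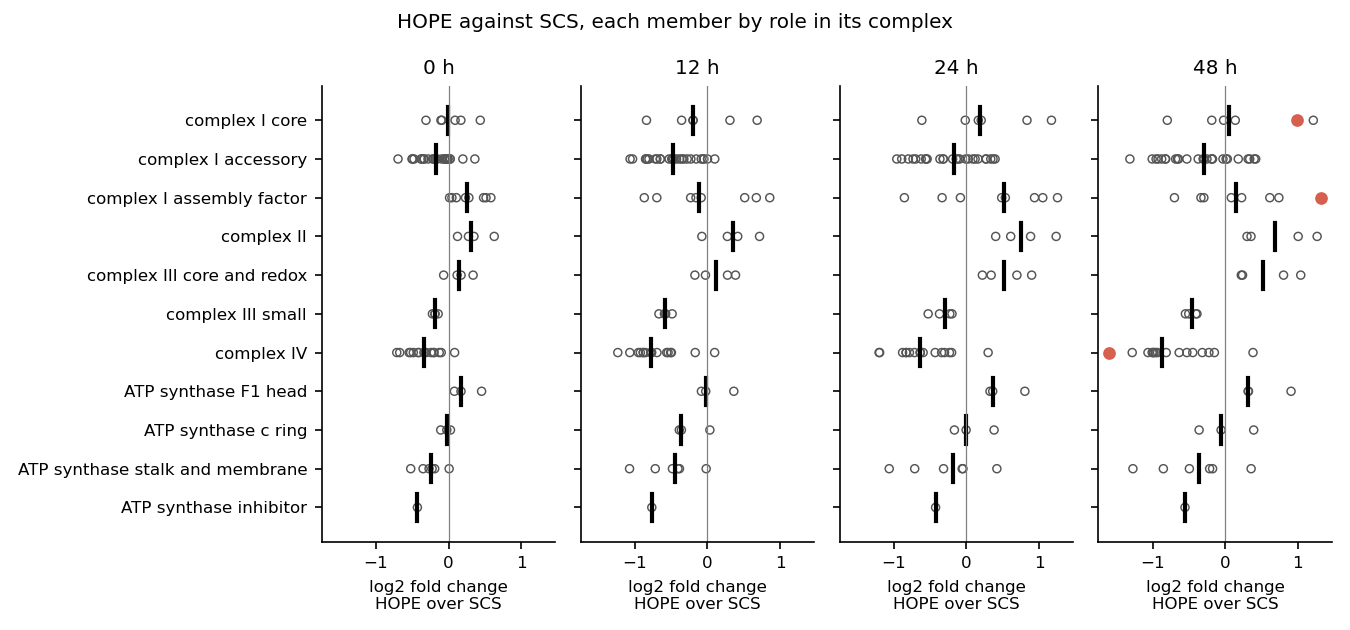
Log2 fold change of HOPE over SCS for each tested member (points) by complex or role, in 1 panel per storage time, with a tick at the median of each role and filled red points for adjusted p under 0.05 (limma). Complex II sits above 0 and complex IV below 0 by median in all 4 panels, and the 3 filled points are in the 48 h panel.

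These signs are relative to the other genes. Scaling each library to its total count, in place of the authors' size factors, put the median log2 difference over all genes at 1.12 for HOPE over SCS at 48 h (against 0.018), which turned the sign of many small subunits, and at -0.99 for 48 h of SCS against 0 h (against -0.027). Measured from the median of all genes, complex II stood at 0.68 and complex IV at -0.88 under that scaling, and at 0.66 and -0.89 with the authors' factors.

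Counts of members whose HOPE and SCS libraries did not overlap lay near or below those of all genes, except for lower members at 48 h. At 0 h 1 member was wholly higher in HOPE hearts (ATP5F1D, the delta subunit of the F1 part of ATP synthase) and 0 wholly lower, where 5.23% and 6.19% of all genes were. At 12 h 5 were higher and 10 lower (11.6% and 12% of all genes), and at 24 h 5 and 8 (13.9% and 12.9%). At 48 h 3 were higher (10.5% of all genes) and 19 lower (10.2%). The 19 lower members, 23.5% of the 81, were ATP5ME and ATP5MK of ATP synthase, NDUFA2, NDUFA5, NDUFB1, NDUFB2, NDUFB7, NDUFB9, NDUFB11, NDUFS5 and NDUFS8 of complex I, the assembly factor NDUFAF8, and COX4I1, COX4I2, COX7A1, COX7A2, COX7B, COX7C and NDUFA4L2 of complex IV. NDUFAF1 and SDHC were among the 3 higher ones.

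The members' differences ran with a measure that rises with transcript length, a relation looked for after the values had been seen. The measure is the normalised count in the first experiment divided by the TPM of the same gene in the HOPE libraries of the second, since TPM is scaled for length and a count is not. It was available for 43 members. In the 14 members with the lowest ratios (7.02 to 14.01), the median log2 difference of HOPE over SCS at 48 h was -0.53, with 3 positive. In the middle 15 it was -0.18, with 5 positive. In the 14 with the highest ratios (24.6 to 144) it was 0.38, with 11 positive. NDUFS1, at a ratio of 86.3, and NDUFB1, at 7.95, stood at opposite ends, while NDUFA6 had the highest ratio (144) and a difference of -0.64. The TPM of NDUFA6 ranged from 2.13 to 38.9 in those HOPE libraries, so its ratio is uncertain. Across the 43 members Spearman's rho at 48 h was 0.56, against 0.30 across the 3387 genes with both values. At 0 h, before storage, it was 0.55 for the members and 0.18 for all genes. At 12 h it was 0.56 and 0.28, and at 24 h 0.56 and 0.28. The ratio and the difference share the counts of the first experiment, and rho at 48 h varied with the libraries used. With the ratio taken from SCS libraries alone it was 0.40 for the members and 0.14 for all genes. With HOPE libraries alone it was 0.71 and 0.44. The points share libraries and genes are not independent, so this is a description. Submitters used RNA of an integrity number above 6, per the labels, and no value per sample is given; the part of RNA integrity in these differences was not tested.

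Within isoform pairs, which compare transcripts of 1 subunit with each other, the groups differed by less than the larger of their SDs. The ratio of COX7A1, the muscle form, to COX7A2, the widely expressed form, averaged 4.50 ± 0.717 in HOPE hearts and 4.80 ± 1.05 in SCS hearts at 48 h (SD, n = 3 each). That of COX8H, the heart form of subunit 8, to COX8A, the widely expressed form, averaged 3.27 ± 0.742 in HOPE hearts and 4.14 ± 1.14 in SCS hearts. For COX4I2 to COX4I1 the averages were 0.0128 ± 0.00234 in HOPE hearts and 0.0159 ± 0.00494 in SCS hearts. For NDUFA4L2 to NDUFA4 the averages were 0.0138 ± 0.00309 in HOPE hearts and 0.0430 ± 0.0336 in SCS hearts. All 3 HOPE values (0.0174, 0.0118 and 0.0123) lay below all 3 SCS values (0.0282, 0.0193 and 0.0815), whereas the groups overlapped in the other 3 ratios. At 48 h NDUFA4 itself differed by -0.23 (log2), COX7A2 by -0.98, COX7A2L, a factor that links complexes III and IV, by -0.45, COX8A by -0.64, COX8H by -0.96, COX4I1 by -0.99, the muscle isoform COX6A2 by -0.53 and the testis-type isoform COX6B2 by -0.15. The c-ring genes ATP5MC1, ATP5MC2 and ATP5MC3, which encode the same mature protein, stood at -0.36, -0.058 and 0.39.

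Whether storage changed the members differently under HOPE and under SCS was tested directly, as the difference between the changes from 0 h. At 12, 24 and 48 h 0 members passed with limma, where 0% of all genes did, and edgeR and DESeq2 also called 0. At an unadjusted p under 0.05 there were 1, 0 and 1 members, where 0.580%, 1.84% and 3.61% of all genes passed. ATP5F1A, with 0.74 ± 0.46 at 48 h, did not pass (adjusted p = 0.988). With the pig as a block 0 members passed at 48 h, where 0.127% of all genes did. At an unadjusted p under 0.05 the blocked fit gave 10, 7 and 18 of the 81 members at 12, 24 and 48 h. Of all 14141 genes 652, 1442 and 1964 did so. The groups were different pigs, and the 48 h differences between HOPE and SCS hearts were not shown to have arisen during storage.

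Outside the chosen symbols, the mitochondrially encoded subunits of the same complexes gave more calls. At 48 h 3.84% of all genes rose in HOPE hearts and 2.41% fell with limma, and 6.88% and 4.63% with the pig as a block. Of these 13, 6 fell in HOPE hearts at 48 h with limma and 0 rose: ND3, ND4, ND4L (-2.43 ± 0.41), ND5 and ND6 of complex I and ATP6 of ATP synthase. The median of the 13 was -2.06, and 10 fell with the pig as a block. Of 43 other assembly factors 40 were tested, of which 1 rose (UQCC1, 1.07 ± 0.29) and 2 fell (UQCC2, -1.02 ± 0.25, and COX20, -0.81 ± 0.23). Their calls lay near the share of all genes. UQCC1 and UQCC2 act together in building cytochrome b of complex III, and COX20 in maturing COX2 of complex IV. Of 17 electron carriers and genes of their synthesis 3 rose and 0 fell: COQ10A, a coenzyme Q binding protein (2.26 ± 0.60), ETFA, which feeds electrons from fatty acid oxidation (1.40 ± 0.35), and COQ6, an enzyme of coenzyme Q synthesis (0.83 ± 0.23). Of 15 tested transcriptional regulators, among them PPARGC1A and NRF1, 0 passed at 48 h with limma and 3 with the block.

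After NMP, HOPE hearts stored for 3, 24 and 48 h did not differ in any member past the threshold. Summed over the 45 members, TPM were 17472 and 17062 after 3 h, 13399 and 18139.5 after 24 h, and 12096 and 19725 after 48 h. The libraries of the 3 times overlapped. Of the 37 members tested, 0 passed for 24 h against 3 h, 48 h against 3 h or 48 h against 24 h with limma, where 0%, 0% and 0.0684% of all 4388 tested genes did. At an unadjusted p under 0.05 the count of members was also 0 in each, where 15.1%, 8.07% and 3.42% of all genes passed. The median differences were -0.15, -0.22 and -0.053 for the members and 0.22, 0.023 and -0.19 for all genes. UQCRC2 had the smallest p for 24 h against 3 h (-0.54 ± 0.31) and for 48 h against 3 h (-0.67 ± 0.31).

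The 1 heart stored for 24 h by SCS before NMP had much lower TPM of these transcripts than the HOPE hearts. Its members summed to 1590.3 TPM, against 13399 and 18139.5 TPM after 24 h of HOPE. NDUFS7, a core iron-sulfur subunit of complex I, had 44.0 TPM in the SCS heart, against 621 and 793 in the HOPE hearts stored for 24 h. COX4I1 had 122 TPM in the SCS heart, against 1278 and 1349. ATP5F1A had 83.8 TPM in the SCS heart, against 865 and 1198. In each of these the SCS library lay below all 6 HOPE libraries. Among the members that fell least were COX7A2L, with 18.4 TPM in the SCS heart, against 54.1 and 64.1, and ATP5IF1, with 156, against 541 and 743.

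Of the 37 members tested, 36 fell in the SCS heart relative to the 24 h HOPE hearts with limma, where 54.2% of all genes passed and 51.8% fell. This sets 1 library against 2 and assumes that the lone library varies like the others, so preservation and heart cannot be told apart. The exception was NDUFA6 (-3.20 ± 1.21; adjusted p = 0.0525). The median of the members was -3.29 and that of all genes -1.12. By complex the medians were -3.27 for complex I, -2.94 for complex II, -3.69 for complex III, -3.41 for complex IV and -3.37 for ATP synthase. The 6 members that fell most were NDUFS7 (-3.97 ± 0.38), UQCRC1 (-3.89), NDUFV1 (-3.88), COX5B (-3.82), UQCRQ (-3.79) and NDUFA11 (-3.66). The 6 that fell least were COX7A2L (-1.63), ATP5F1E (-1.73), ATP5IF1 (-2.01), NDUFAF3 (-2.07), NDUFAF5 (-2.23) and NDUFV3 (-2.59).

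**Figure D5:**
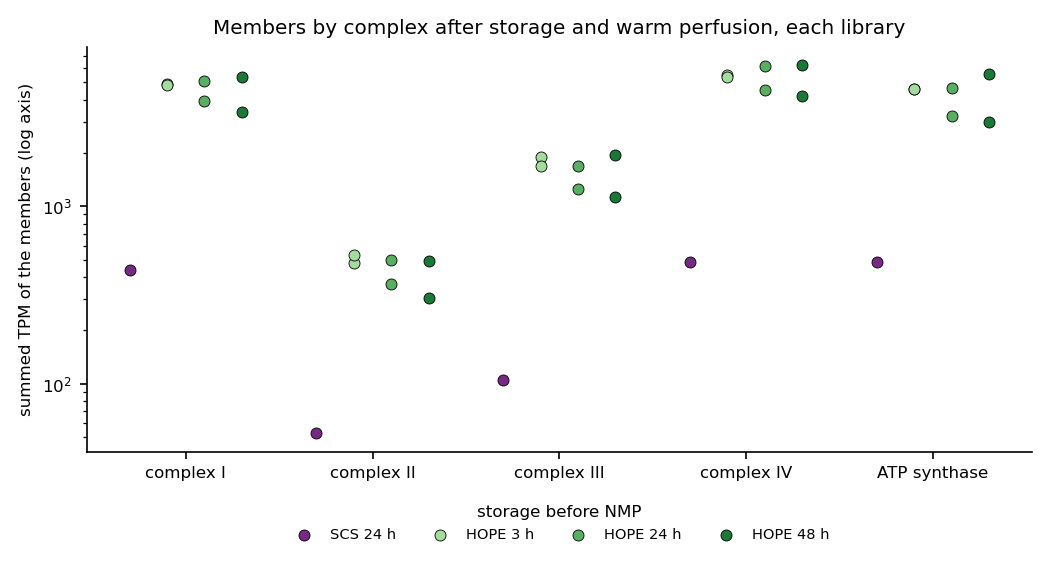
Summed TPM of the members of each complex (log axis) in each library after NMP, with the SCS heart left of the HOPE hearts of 3, 24 and 48 h. Over all complexes the SCS library sums to 1590.3 TPM and the 6 HOPE libraries to between 12096 and 19725 TPM.

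Markers of the cell types moved in the same library. Cardiomyocyte markers summed to 2484 TPM in the SCS heart, against 43556 to 57169 TPM in the 24 h HOPE hearts. The median log2 difference of the 8 tested was -4.27. Fibroblast markers summed to 2615 TPM in the SCS heart, against 851 to 1171 TPM, and red cell markers to 6161 TPM, against 34.2 to 126 TPM. The part of cell makeup in the members' fall was not tested. Mitochondrially encoded subunits held 54.7% of all TPM in the SCS heart, against 47.9% and 39.8%, and the ratio of nuclear members to them was 0.00291, against 0.0279 and 0.0456. Only 1 of the mitochondrially encoded genes fell past the threshold (ND4L). Of the pathway genes outside the chosen symbols, assembly factors summed to 178 TPM in the SCS heart, against 892 to 1163 TPM in the 24 h HOPE hearts. Electron carriers and their synthesis genes summed to 279 TPM in the SCS heart, against 1291 to 1742 TPM.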

How the data were processed

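Pig myocardium was profiled by RNA-seq. Per the labels' protocols, libraries of the first experiment were made with a stranded poly(A) kit and those of the second with NEBNext Ultra II and an added spike-in, not used here. Per the submitters' processing notes, the aligners were STAR 2.5.2b and HISAT2 2.2.1 and the genome Sscrofa11.1, and the counters Subread 1.5.2 and featureCounts 2.0.6, with no statement of which served which experiment. The notes also list DESeq2, FastQC, Trimmomatic 0.36 and bcl2fastq 2.17. How reads matching several genes were counted is not stated, so small subunits with near-identical copies are uncertain. The first deposited table holds normalised counts, a signal that the authors made by dividing read counts by a size factor per library. Whole reads could be recovered from 100% of values (tolerance 1e-06), 19722065 to 35099406 per library. The second deposited table holds TPM, with 11 further columns not analysed here. Gene positions are those of RefSeq on Sscrofa11.1.

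The main test was limma 3.58.1 (R 4.3.3) with a trend on log2(value + 1), so fold changes of low genes are understated, fitted over all libraries of an experiment on genes with a mean of at least 10 (14141 and 4388 genes) with Benjamini-Hochberg adjustment and a threshold of 0.05. The residual degrees of freedom were 16 and 3. The test was first checked on simulated data of the 48 h comparison. edgeR 4.0.16 and DESeq2 1.42.0 were run on the recovered reads; at 48 h of HOPE against SCS they called 841 and 1931 genes and limma 884. Each pig gave 4 libraries, and same-pig libraries deviated together (correlations of 0.232 to 0.720 under SCS and 0.399 to 0.730 under HOPE), so fits with the pig as a block are given where they change a call (correlation 0.44). In the second experiment, same-numbered libraries correlated at 0.0900 to 0.384, and the numbers there do not name animals. Nothing says that its libraries are from separate hearts, and its p-values may rest on technical spread alone. Other alternatives were the pseudocount, the filter, the scaling and leaving out pigs or libraries.

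The members, lists and alternatives were chosen with earlier results of these data known. Named are all members that passed (the 6 highest and 6 lowest beyond 12), the 2 with the smallest p or the first of them where none passed, fixed core subunits and isoform pairs, and the extremes of each complex. ATP5F1B, COX6A1, COX6B1 and UQCRH are not analysed here. 1 member is counted in the totals and not reported here by name. No list was tested as a set.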

Additional observations from a re-analysis of the deposited data

Results flagged for a closer look

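For the 4 small subunits of complex III the median log2 change between 12 h and 0 h was -0.17, -0.14 and -0.21 in HOPE pigs 2, 4 and 6. In SCS pigs 1, 3 and 5 it was 0.053, 0.57 and 0.087. At 12 h all pigs of each group thus moved one way and the groups opposite ways. The HOPE mean minus the SCS mean was -0.41. At 24 h the medians were -0.12, -0.11 and 0.21 in HOPE pigs and 0.66, -0.066 and -0.087 in SCS pigs. At 48 h they were -0.15, -0.28 and 0.089 in HOPE pigs and 0.75, 0.078 and -0.30 in SCS pigs. Neither group moved one way at these later times. For the 16 complex IV members the median change between 48 h and 0 h was -0.099, -0.27 and -0.064 in HOPE pigs and 0.63, 0.034 and 0.0084 in SCS pigs, and the HOPE mean minus the SCS mean was -0.37. Neither difference of medians was tested, and no single member passed the test of a difference between the changes from 0 h.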

How the results depend on the processing

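Pseudocount, stricter filter and the other alternatives not named here left each count of members called within 1.5 times of its value above. Counts at 48 h of HOPE against SCS, 3 as reported, moved most: 36 under total-count scaling, 9 when scaled without mitochondrially encoded genes, 6 after quantile normalisation, 18 with the pig as a replicate block, 0 with only the groups compared in the fit, 1 with edgeR and 9 with DESeq2. The share of all genes called under these scalings is not given here, and total-count scaling put the median over all genes at 1.12. The counts under the scalings are therefore not read as results about the members. The counts at 48 h of HOPE against SCS ranged over 0 to 30 when a pig was left out, and over 0 to 34 with the block. The blocked fit gave 34 without pig 1 and 33 without pig 6, where 26.8% and 23.6% of all genes passed. Counts were 0 without the 48 h SCS library of pig 5 and 7 without the 0 h HOPE library of pig 6. At 24 h, 0 as reported, counts were 7 with the block, 4 with DESeq2, 0 to 23 without a pig, 0 to 26 without a pig with the block, and 3 without the 0 h HOPE library of pig 6. The 26 came without pig 6, where 19.4% of all genes passed, and the 3 stood beside 5.83% of all genes. At 12 h they were 0 to 20 without a pig and 0 to 26 with the block (26 without pig 1 and 25 without pig 6); at 0 h they were 0 to 4 with the block. For 48 h of SCS total-count scaling called 28, all lower, and blocked fits gave 5 without pig 1 and 2 without pig 3. For the difference between the 48 h changes the blocked fit gave 5 without pig 1. The share of all genes is not given here for these fits. For 48 h of SCS total-count scaling put the median over all genes at -0.99. The block changed no other call. Leaving out pigs within the blocked fit was added after seeing the data.

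Total-count scaling moved the members' median, as it moved all genes, to -0.89 for 48 h of SCS, -0.057 for 12 h of HOPE (-0.050 without the 0 h HOPE library of pig 6; -0.13 without an SCS pig), 0.068, 0.24 and 0.87 for HOPE against SCS at 12, 24 and 48 h, and 0.065 and 0.85 for the difference between the changes at 12 and 48 h. It turned the sign of these members at 48 h of HOPE against SCS: ATP5IF1 (0.56), ATP5MK (0.27), COX4I1 (0.13), COX5B (0.31), COX7A1 (0.054), COX7A2 (0.14), COX7C (0.11), COX8A (0.48), COX8H (0.16), NDUFA4 (0.89), NDUFAF8 (0.41) and UQCR11 (0.57). For 48 h of SCS it turned ATP5ME (-0.40), NDUFA4L2 (-0.28), NDUFA7 (-0.55), NDUFAF2 (-0.47) and UQCRQ (-0.74). Leaving out 1 pig, with or without the block, SDHD ranged from -0.39 to 0.28, NDUFA4 from -0.37 to 0.16 and UQCRQ from -0.076 to 0.51; without the 48 h library of pig 5 SDHD was 0.17 (0.23 with the block, where NDUFA4 was 0.10). NDUFV1 ranged from -0.0091 without pig 6 to 0.32 without pig 1 for HOPE against SCS at 48 h. After NMP the members' median was -0.47 for 24 h against 3 h of HOPE and -2.50 for SCS against HOPE under median-of-ratios scaling, -2.23 for SCS against HOPE after quantile normalisation, and, leaving out 1 library, -0.50 to 0.12 for 48 h against 3 h and -0.36 to 0.22 for 48 h against 24 h. The cause of these shifts was not tested.

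With 3 pigs a group and 1 SCS heart after NMP, modest differences could be missed. Over all alternatives and named members, 28 values changed sign, 153 came to pass the threshold, 42 no longer passed and 1779 kept sign and side of the threshold.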
